A study of Mus musculus with 21 samples.

Results

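Prnp, the mouse tau gene Mapt and 6 related genes were followed across the forebrains of 21 mice, of which 12 carried a human tau transgene with a Prnp promoter. The 8 genes, of 55401 in the deposited count table, are Prnp, Prnd and Lamr1-ps1 at the prion protein locus, Mapt, and the other microtubule-associated protein genes Map1a, Map1b, Map2 and Map4. They were chosen by name with their levels in PS19 and parental mice already known, so those levels are a description and carry no test. Tests are given for what the choice did not use, which is the APOE genotype and the spread among mice of a kind. Of the 8 genes, 7 passed the filter on low counts, Lamr1-ps1 only through the PS19 mice, and Prnd did not pass.

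The parental groups E2H, E3H and E4H held 3 mice each, homozygous for human APOE2, APOE3 or APOE4 in place of the mouse gene and killed at 9 to 10 months of age. Mice with the same APOE replacements that were also heterozygous for the PS19 transgene formed PS/E2H, PS/E3H and PS/E4H, with 4 animals in each group. The transgene is human tau with the P301S mutation driven by the mouse prion protein promoter. These mice were taken when their hindlimbs were paralyzed. PS19 is 1 transgenic line that was kept on a mixed B6/C3H background, whereas the APOE lines were kept on C57BL6 and the PS19 mice were back-crossed to them, so the transgene, paralysis, age at death and strain background cannot be told apart in any comparison of PS19 with parental mice. Females numbered 2 in PS/E4H, 1 in PS/E2H and 1 in E4H, the rest being males, and the labels do not tie sex to single mice. In the paper's survival cohorts, PS/E3H mice reached paralysis later than PS/E2H and PS/E4H mice. Age at death may thus differ between the PS19 groups, as the number of females does. Comparisons of APOE genotype among PS19 mice, and of the PS19 difference between lines, cannot be told apart from age and sex.

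Prnp encodes the prion protein, a glycoprotein on the surface of neurons and glia, and its promoter is widely used to drive transgenes in the brain. Prnd encodes doppel, a relative of the prion protein that is made mainly in the testis, and Lamr1-ps1 is a processed pseudogene of Rpsa, the gene of the ribosomal protein and laminin receptor RPSA. Tau and the MAP proteins bind along microtubules and stabilize them: tau and MAP1B are most abundant in axons, MAP2 marks dendrites, MAP1A is found in mature neurons and MAP4 is the form shared with cells other than neurons. The construct of the PS19 line places the tau coding sequence within Prnp sequence. A table of mouse genes has no row for human tau, and its sequence was not used here.

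Lamr1-ps1 and the promoter of Prnp are shown because the largest difference at this locus lies in the pseudogene just upstream of that promoter. Lamr1-ps1 (GRCm38 chr2:131904086-131904959, plus strand, annotated as a processed pseudogene) ends 4968 bases before the start of Prnp (chr2:131909928-131938429, plus strand). In the 180 bases of Lamr1-ps1 at chr2:131904217-131904396 (plus strand, 5′ to 3′), capitals mark the 50 bases that differ from Rpsa or are extra to it. The stretch was chosen as the 180 bases with the most such bases, of which the whole pseudogene of 874 bases holds 198.

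Lamr1-ps1: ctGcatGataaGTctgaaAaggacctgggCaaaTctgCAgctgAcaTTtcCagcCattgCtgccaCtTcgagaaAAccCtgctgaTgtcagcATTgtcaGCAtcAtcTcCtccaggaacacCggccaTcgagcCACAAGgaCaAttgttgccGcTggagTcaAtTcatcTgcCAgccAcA

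Aligned over its 874 bases to an Rpsa transcript, the pseudogene was identical in 676 of 920 columns, gaps counted (73.5%). None (0) of its 825 windows of 50 bases occurred, in the same orientation, in a transcript of another gene. The opposite strand was not searched. A read that matches such a window is thus told apart from Rpsa transcripts in that orientation. The promoter of Prnp (RefSeq, GRCm38.p6 chr2:131909678-131909930, plus strand, 5′ to 3′) is printed up to the last motif found, 3 bases into exon 1, with capitals for the GC box GGGCGG, the CCAAT box CCAAT and the TATA box TATAAA on either strand.

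Prnp promoter: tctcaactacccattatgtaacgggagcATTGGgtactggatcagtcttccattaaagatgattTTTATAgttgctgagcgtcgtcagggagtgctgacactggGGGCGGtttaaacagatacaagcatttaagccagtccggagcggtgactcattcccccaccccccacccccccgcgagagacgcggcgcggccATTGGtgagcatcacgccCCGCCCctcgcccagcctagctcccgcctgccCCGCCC

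The 300-base window from 250 bases before to 50 after the start held 3 GC boxes (10.7% of the 32851 windows of that length in the table held at least as many), 2 CCAAT boxes (11.7%) and 1 TATA box (13.6%). Its GC content was 60.0% against a median of 52.7%. These matches are letters in a window and not measured binding sites. Of the 8 genes, 6 had a window in that table, and Mapt and Lamr1-ps1 did not.

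The libraries held 59265459 to 75932183 counts each, and all markers of neurons, astrocytes, microglia and oligodendrocytes used to check the tissue were detected in every mouse. E2H mouse 2 stood apart among the parental mice. It had the lowest Mapt, Map1a, Map1b and Map2 and the highest Prnp of the 9, so the differences below that involve E2H are followed by their values without it. Levels below are CPM, that is counts scaled to library depth, on TMM-scaled library totals unless FPKM is named, a level per length of transcript with which genes can be compared.

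Prnp was the most abundant of the 8 genes per length and was higher in every PS19 mouse than in every parental mouse. Only Prnp and Lamr1-ps1, 2 of the 8, had no overlap between the 12 PS19 and the 9 parental mice. This contrast was used in choosing them, so nothing is read from that count. The share of all genes without overlap was not computed, so the overlaps within single lines below are descriptions too. By another measure, an adjusted p under 0.05 in the pooled edgeR fit, 21.8% of all 22863 genes passed. In the parental mice Prnp stood at 881, 1056 and 935 CPM in E2H mice 1 to 3, at 889, 857 and 938 CPM in the E3H mice and at 821, 826 and 902 CPM in the E4H mice. In the PS19 mice it stood at 1798, 1896, 1687 and 1826 CPM in PS/E2H, at 1739, 1403, 1391 and 1557 CPM in PS/E3H and at 1653, 1488, 1827 and 1932 CPM in PS/E4H. The lowest PS19 mouse, PS/E3H mouse 3, was 335 CPM above the highest parental mouse, E2H mouse 2. The group means were 957 ± 89.9 (SD, n = 3) in E2H and 1802 ± 87.0 (n = 4) in PS/E2H, 895 ± 40.8 (n = 3) and 1523 ± 163 (n = 4) with APOE3, and 850 ± 45.4 (n = 3) and 1725 ± 196 (n = 4) with APOE4.

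As fitted with edgeR, Prnp was 0.91 ± 0.0924 (SE) higher on the log2 scale in PS/E2H than in E2H, 0.75 ± 0.0864 higher in PS/E3H than in E3H, and 1.02 ± 0.0898 higher in PS/E4H than in E4H. Pooled over the 3 lines the difference was 0.90 ± 0.0533, a fold of 1.87. Without E2H mouse 2 the APOE2 value was 0.997 and the pooled value 0.93. The fold of a single PS19 mouse over the mean of its own parental group ran from 1.56 in PS/E3H mouse 3 to 2.27 in PS/E4H mouse 4.

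Lamr1-ps1 had no count in any of the 9 parental mice and was counted in all 12 PS19 mice. The counts were 82, 75, 65 and 82 in the PS/E2H mice, 111, 54, 44 and 79 in the PS/E3H mice and 47, 57, 136 and 93 in the PS/E4H mice. In CPM the PS/E2H mice stood at 1.18, 1.26, 1.06 and 1.37, the PS/E3H mice at 1.57, 0.866, 0.701 and 1.13, and the PS/E4H mice at 0.760, 0.932, 2.19 and 1.46. The 4 PS/E2H mice lay close together, while the PS/E4H mice held both the highest value of all and one of the lowest. A count of 0 in a parental library allows up to 3 counts, which covers counting error only. At these depths that is 0.0395 to 0.0497 CPM on library totals without TMM factors, the scale also used for the folds that follow. Against that limit of 3 counts per library, Lamr1-ps1 was at least 28.0-fold higher in PS/E2H than in E2H, at least 24.5-fold higher in PS/E3H than in E3H and at least 31.8-fold higher in PS/E4H than in E4H.

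**Figure D1:**
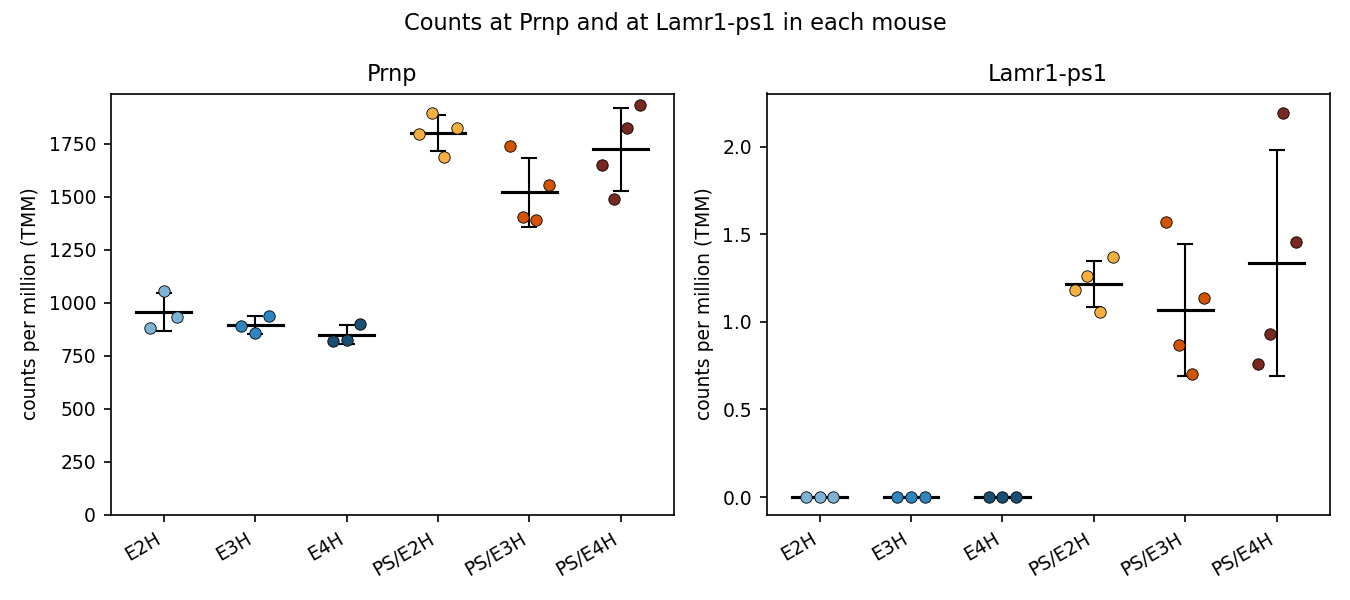
Levels in CPM of Prnp (left) and Lamr1-ps1 (right) by group, where each point is a mouse, the wide bar is the group mean and the whiskers are 1 SD (3 parental or 4 PS19 mice). The 12 PS19 mice lie at 1391 to 1932 for Prnp and 0.701 to 2.19 for Lamr1-ps1, above all 9 parental mice, which have 0 for Lamr1-ps1.

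Prnd, downstream of Prnp, did not follow this pattern. The gene (chr2:131950861-131956130, plus strand) begins 12431 bases after the end of Prnp. It had no count in 19 of the 21 mice, 8 counts in E4H mouse 2 and 16 counts in PS/E3H mouse 4. The highest FPKM of Prnd was 0.0651, against 562 or more for Prnp in any PS19 mouse. Most of Prnd (95.9% of its windows of 50 bases) is shared with Prn, an annotated readthrough gene that starts in Prnp and ends with Prnd, so counts of the pair could be split either way. Prn itself had 0 to 52 counts, with 14 at the median parental and 9 at the median PS19 mouse, and the 2 kinds of mice overlapped.

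Prnp and Lamr1-ps1 moved together among the PS19 mice. Over the 12 mice, log2 CPM of the pair gave Pearson's r = 0.74 (permutation p = 0.00505, adjusted p = 0.0202 over the 4 correlations that could be computed) and Spearman's rho = 0.83 (permutation p = 0.00143, adjusted p = 0.00572), both two-sided with 100000 resamples. Without PS/E3H mice 2 and 3, the 2 mice farthest from the median of Prnp, r was 0.60 over 10 mice (permutation p = 0.0676), so the relation no longer passed the threshold there. With each mouse set against its own group mean, r was 0.80 (adjusted p = 0.00808), and leaving out 1 mouse at a time kept r between 0.66 and 0.80. The scale of the deposited FPKM, log2(FPKM + 0.1), gave r = 0.69 and an adjusted p of 0.0524.

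**Figure D2:**
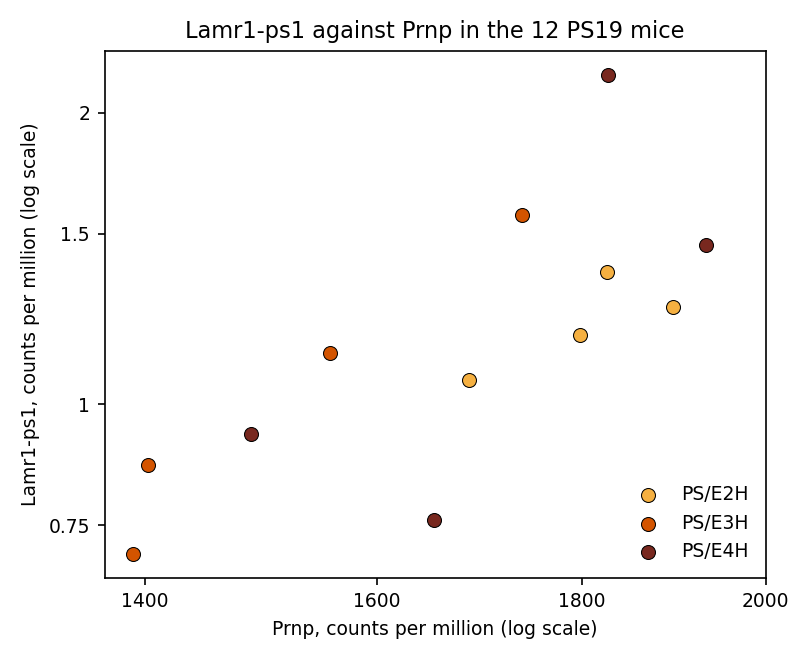
Levels in CPM of Lamr1-ps1 against those of Prnp in the 12 PS19 mice, both on log scales, with 1 point per mouse and a color per APOE line. The PS/E3H mice at 1391 and 1403 for Prnp have 0.701 and 0.866 for Lamr1-ps1, and PS/E4H mouse 3 has the highest Lamr1-ps1, 2.19, at a Prnp level of 1827.

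The part of Prnp above the parental level was compared with Lamr1-ps1 mouse by mouse. Prnp exceeded the mean of the matching parental group by 496 to 1083 CPM (median 822), a spread of 2.18 times between the lowest and the highest mouse. Per 1000 CPM of this excess, Lamr1-ps1 had 0.946 to 2.25 CPM (median 1.46), lowest in PS/E4H mouse 1 and highest in PS/E4H mouse 3. The coefficient of variation over the 12 mice was 34.1% for Lamr1-ps1 and 21% for its ratio to the Prnp excess. Whether these reads came from the construct was not tested.

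Mapt levels of PS19 and parental mice lay close together. Mapt stood at 460, 419 and 480 CPM in the E2H mice, 463, 468 and 484 CPM in the E3H mice and 497, 502 and 510 CPM in the E4H mice. The PS/E2H mice had 462, 496, 470 and 432 CPM, the PS/E3H mice 483, 455, 458 and 427 CPM and the PS/E4H mice 474, 417, 458 and 448 CPM. All 4 PS/E4H mice lay below the 3 E4H mice, whereas PS19 and parental mice overlapped with APOE2 and APOE3. On the log2 scale PS19 mice differed from their parental line by 0.04 ± 0.084 (SE) with APOE2, -0.07 ± 0.0632 with APOE3 and -0.16 ± 0.0593 with APOE4. Without E2H mouse 2 the APOE2 difference was -0.0068 and the pooled one -0.07. Leaving out any 1 mouse gave -0.0068 to 0.078 with APOE2 and -0.09 to -0.033 (without PS/E3H mouse 4) with APOE3. None (0) of the windows of 50 bases in Mapt transcripts occurred, in the same orientation, in a transcript of another mouse gene. Whether reads of human tau were counted at Mapt was not tested.

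Map1a and Map1b, which encode related proteins that are each cleaved into a heavy and a light chain, had lower levels in PS19 mice in all 3 lines. Map1a was at 895, 818 and 917 CPM in E2H, 1079, 985 and 1013 CPM in E3H and 1042, 1151 and 1023 CPM in E4H. It was at 794, 794, 816 and 852 CPM in PS/E2H, 961, 818, 791 and 848 CPM in PS/E3H and 821, 703, 790 and 616 CPM in PS/E4H. No PS19 mouse reached the lowest mouse of its parental group with APOE3 or APOE4, and the groups overlapped with APOE2. The log2 differences were -0.11 ± 0.0778 (SE) with APOE2, -0.28 ± 0.0766 with APOE3 and -0.55 ± 0.099 with APOE4.

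Map1b was at 685, 553 and 707 CPM in E2H, 783, 784 and 766 CPM in E3H and 726, 842 and 668 CPM in E4H. It was at 513, 433, 627 and 569 CPM in PS/E2H, 652, 636, 639 and 522 CPM in PS/E3H and 552, 515, 516 and 460 CPM in PS/E4H. As for Map1a, the groups were apart with APOE3 and APOE4 and overlapped with APOE2. The log2 differences were -0.28 ± 0.13 (SE), -0.36 ± 0.0824 and -0.54 ± 0.0904 with APOE2, APOE3 and APOE4. Without E2H mouse 2 the APOE2 differences were -0.15 for Map1a and -0.37 for Map1b.

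Map2, the dendritic member, ranged from 616 to 874 CPM in the parental and from 507 to 769 CPM in the PS19 mice, with log2 differences of -0.24 ± 0.115 (SE), -0.13 ± 0.0751 and -0.23 ± 0.0754 in the 3 lines. Without E2H mouse 2 the APOE2 value of Map2 was -0.32, and without E3H mouse 3 the APOE3 value was -0.060. Only PS/E4H and E4H did not overlap. Map4, the form also made outside neurons, ranged from 500 to 545 CPM in the parental and from 511 to 590 CPM in the PS19 mice. Its groups overlapped in each line, at log2 differences of 0.03 ± 0.0722 (SE), 0.08 ± 0.0615 and 0.09 ± 0.0626, with 0.021 for Map4 with APOE2 when E2H mouse 2 was left out. Without PS/E2H mouse 1 or 2 that value was 0.0052 or 0.044, and without PS/E3H mouse 2 the APOE3 value was 0.047. Pooled over the lines, the log2 differences were -0.06 for Mapt, -0.30 for Map1a, -0.39 for Map1b, -0.19 for Map2 and 0.07 for Map4, beside a median of -0.0033 over all 22863 genes tested. With E2H mouse 2 left out, the pooled values were -0.32 for Map1a, -0.42 for Map1b, -0.22 for Map2 and 0.065 for Map4.

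**Figure D3:**
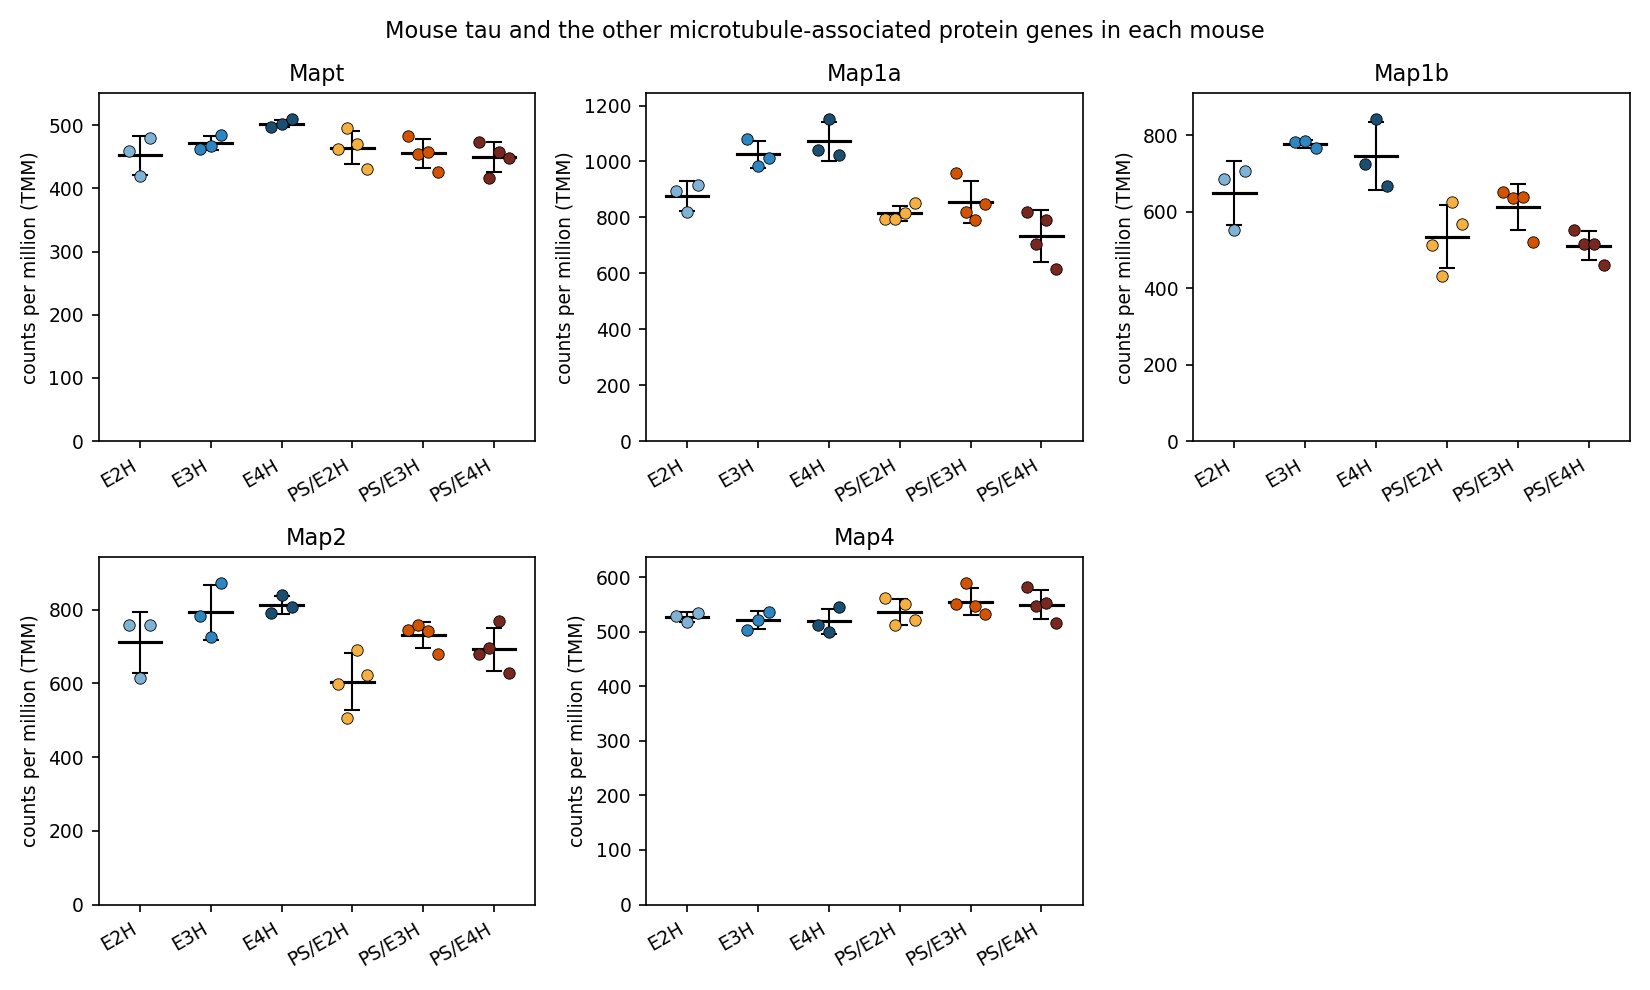
Levels in CPM of Mapt, Map1a, Map1b, Map2 and Map4 by group, where each point is a mouse, the wide bar is the group mean and the whiskers are 1 SD (3 parental or 4 PS19 mice). Map1a and Map1b are lower in PS/E3H and PS/E4H than in any mouse of E3H and E4H, and Mapt and Map4 stay between 417 and 590 in all 21 mice.

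Ordered by FPKM, the parental mice had Prnp at 355 ± 21 (SD, n = 9), Map1a at 75.5 ± 9.18, Mapt at 58.5 ± 4.64, Map2 at 43.5 ± 5.06, Map1b at 42.4 ± 6.03 and Map4 at 31.9 ± 1.53. Prnp ranked 53 among 37538 genes. Map2 and Map1b did not differ beyond their spread. In the PS19 mice the order was Prnp at 660 ± 69.2 (SD, n = 12), Map1a at 60.5 ± 5.77, Mapt at 55.8 ± 2.96, Map2 at 37.9 ± 4.54, Map4 at 33.2 ± 1.71 and Map1b at 32.1 ± 4.46, with Lamr1-ps1 at 1.26 ± 0.42. There Map1a and Mapt, and Map4 and Map1b, lay within their spread of each other. The mean Prnp level was 306 FPKM higher in PS19 than in parental mice, a difference larger than the whole Mapt level of 55.8 FPKM. For each of the 6 genes other than Prnd and Lamr1-ps1, the CPM before scaling divided by the FPKM varied by at most 4.41% over the 21 mice, so the FPKM table carries the same measurement as the counts and no separate view of transcript forms.

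The edgeR tests between APOE genotypes called none of the genes tested. Prnd was not tested in any of them, and Lamr1-ps1 was tested only among the PS19 mice. With edgeR's quasi-likelihood test and Benjamini-Hochberg adjustment over all genes of a comparison, 0 of 6 passed in E2H against E3H (0.178% of all genes tested passed), in E4H against E3H (0.162%) and in E4H against E2H (0.216%). Among the PS19 mice 0 of 7 passed in PS/E2H against PS/E3H (0.113% of all genes), PS/E4H against PS/E3H (0.0197%) and PS/E4H against PS/E2H (0.119%). The interactions, which test whether the PS19 difference itself differs between 2 lines, called 0 of 6 genes each, beside 0.0% of all genes. Over all 22863 genes 1555 had an unadjusted p under 0.05 for APOE2 against APOE3, 682 for APOE4 against APOE3 and 2610 for APOE4 against APOE2. DESeq2 called 9, 11 and 198. In E2H against E3H 2933 of 20797 genes reached that p, in E4H against E3H 1397 of 20958 and in E4H against E2H 2570 of 20804. Among the PS19 mice the counts were 2383 of 20324, 1324 of 20332 and 2491 of 20202, in the order given above. Of the 57 tests of the chosen genes, 11 had an unadjusted p under 0.05, and DESeq2 called 1. These tests share mice, and nothing is read from the 11.

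Prnp was 0.26 higher on the log2 scale in PS/E2H than in PS/E3H (95% interval 0.08 to 0.44, edgeR, adjusted p = 0.403), and 3 of the 4 PS/E3H mice were below every PS/E2H mouse. The same comparison without the transgene gave 0.10 (-0.10 to 0.30, edgeR, adjusted p = 0.629), and 0.021 without E2H mouse 2. PS/E4H differed from PS/E3H by 0.19 (-0.02 to 0.39) and from PS/E2H by -0.07 (-0.26 to 0.12), the latter between -0.13 (without PS/E4H mouse 4) and -0.0089 (without PS/E4H mouse 2) when 1 mouse was left out. The PS19 difference in Prnp was 0.27 larger with APOE4 than with APOE3 (0.0021 to 0.53, edgeR, adjusted p = 1.0), 0.15 larger with APOE2 than with APOE3 (-0.11 to 0.42) and 0.11 larger with APOE4 than with APOE2 (-0.15 to 0.38). Without E2H mouse 2 these 3 interactions were 0.26, 0.24 and 0.027. Without E2H mouse 1 the second was 0.096, and the third was 0.18 without PS/E4H mouse 2 and 0.060 without PS/E4H mouse 4.

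Lamr1-ps1, tested among PS19 mice alone, differed by 0.20 (-0.44 to 0.84) between PS/E2H and PS/E3H, by 0.33 (-0.50 to 1.16) between PS/E4H and PS/E3H and by 0.13 (-0.60 to 0.86) between PS/E4H and PS/E2H, with adjusted edgeR p-values from 0.782 to 0.907. Without PS/E4H mouse 3, which has the highest value, the last 2 were -0.019 and -0.22. The first ran from 0.048 without PS/E3H mouse 3 to 0.44 without PS/E3H mouse 1. These values rest on 44 to 136 counts per mouse. For Mapt the interaction of APOE4 against APOE2 was -0.20 (-0.38 to -0.01, edgeR, adjusted p = 0.400), and -0.15 without E2H mouse 2 (adjusted p = 0.671).

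Among the interactions, the smallest p-value was that of Map1a. Its PS19 difference was 0.44 lower with APOE4 than with APOE2 (log2 value -0.44, 95% interval -0.69 to -0.19), with an adjusted p of 0.212 by edgeR and 0.042 by DESeq2. It was -0.40 without E2H mouse 2 (edgeR, adjusted p = 0.481). Against APOE3 the APOE4 difference was -0.27 (-0.53 to -0.02, edgeR, adjusted p = 1.0). Map1a also differed between the parental lines E4H and E2H, by 0.29 (0.10 to 0.47, edgeR, adjusted p = 0.346), and all 3 E4H mice were above all 3 E2H mice. That difference was 0.24 without E2H mouse 2 (edgeR, adjusted p = 0.273). Map1b and Map2 interactions had unadjusted edgeR p-values from 0.109 to 0.951.

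**Figure D4:**
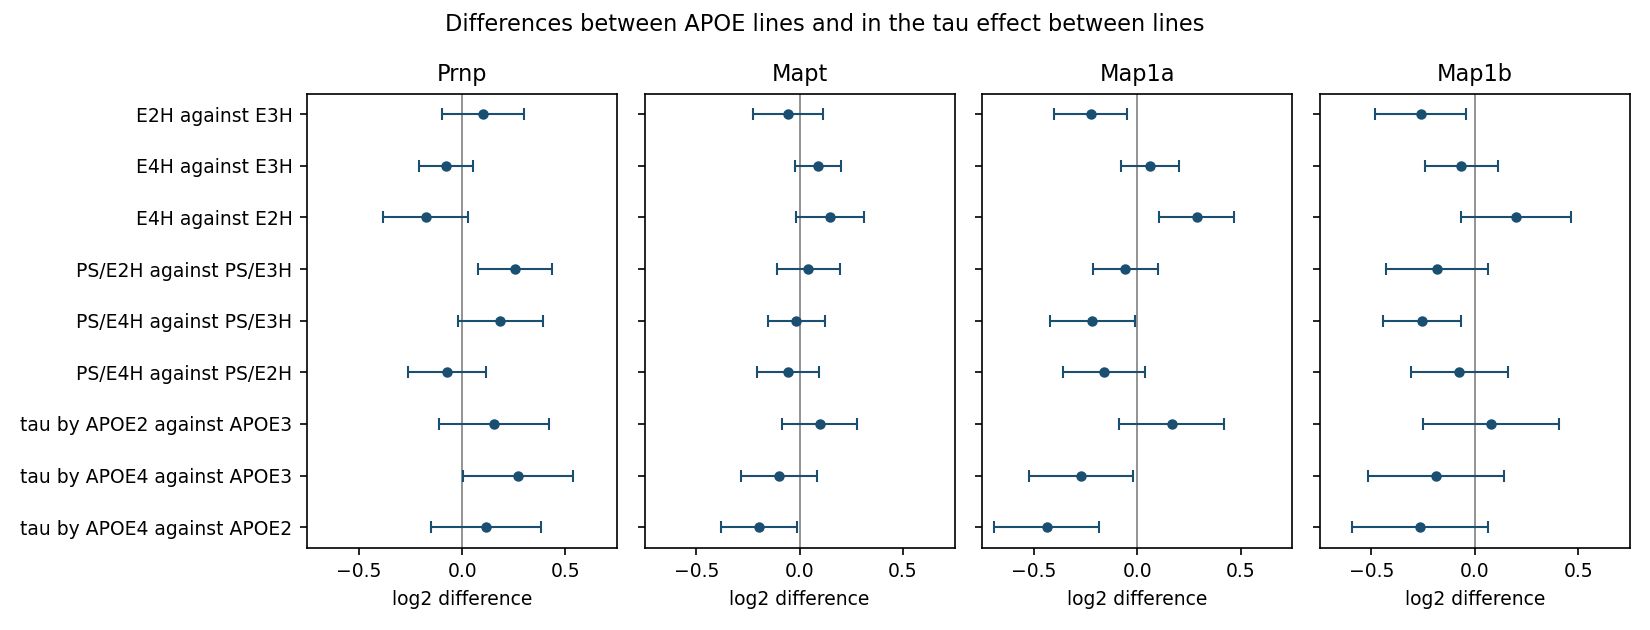
Log2 differences of Prnp, Mapt, Map1a and Map1b between APOE lines (the upper 6 rows) and differences of the PS19 effect between lines (the lower 3 rows), with points for the edgeR estimate and whiskers for its 95% interval, not adjusted for multiple tests. Most whiskers cross 0, and the interval farthest from it is that of Map1a for APOE4 against APOE2, from -0.69 to -0.19.

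Other genes of the microtubule, pooled over the 3 lines, were compared with the 5 tau and MAP genes. In that fit 21.8% of all genes passed at an adjusted p under 0.05 (edgeR), 11.9% higher and 9.89% lower in PS19 mice. An unadjusted p under 0.05 was reached there by 7522 of 22863 genes. In the single lines it was reached by 2203 of 20617 genes with APOE2, 4541 of 21251 with APOE3 and 6282 of 20844 with APOE4. Of the 14 tubulin genes, the subunits of the microtubule, 1 was higher and none (0) lower (3 of 14 had an unadjusted p under 0.05 and DESeq2 called 1), at a median log2 difference of -0.03. The tubulin was Tuba1c, at 118 ± 18.1 (SD, n = 9) CPM in parental and 143 ± 24.9 (n = 12) CPM in PS19 mice (log2 difference 0.28, edgeR, adjusted p = 0.0252). The call was lost when E2H mouse 1 or 3, E3H mouse 3, or E4H mouse 1 or 2 was left out.

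Of 30 other microtubule-associated protein genes, 2 rose, 6 fell and 22 did not pass, at a median of -0.08. Tppp3, a polymerization-promoting protein, rose by 0.53 (44.1 ± 10.3 to 62.6 ± 9.67 CPM, edgeR, adjusted p = 2.38e-05), and Mapre1, which binds growing microtubule ends, rose by 0.24 (84.4 ± 4.21 to 99.9 ± 6.17 CPM, adjusted p = 7.31e-05). Mapre2, of the same end-binding family, fell by 0.20 (296 ± 14.4 to 256 ± 14.3 CPM, edgeR, adjusted p = 0.000328). Tppp, made in oligodendrocytes, fell by 0.22 (492 ± 36.7 to 422 ± 40.3 CPM, edgeR, adjusted p = 0.00163). In the single lines 0 of 29 passed with APOE2 by edgeR (0.752% of all genes, with 4 of 29 at an unadjusted p under 0.05 and 0 called by DESeq2), 2 of 30 with APOE3 (5.37%) and 6 of 30 with APOE4 (15.6%).

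Of 12 relatives and binding partners of the prion protein, 1 rose, 2 fell and 9 did not pass in the pooled fit. That is 25.0%, beside 21.8% of all genes, and nothing particular to the list is read from it. With APOE2, edgeR called 0 of 12 (0.752% of all genes), where 3 of 12 had an unadjusted p under 0.05 and DESeq2 called 1. It called 1 of 12 with APOE3 (5.37%) and 3 of 12 with APOE4 (15.6%). Values below are from the pooled fit. Sprn, which encodes the prion-like protein shadoo, fell by 0.36 (168 ± 11.8 to 132 ± 17.9 CPM, edgeR, adjusted p = 0.000218), and 10 of the 12 PS19 mice were below every parental mouse. Grm5, a glutamate receptor that binds the prion protein, fell by 0.39 (165 ± 19.6 to 125 ± 15 CPM, edgeR, adjusted p = 4.57e-05). Rpsa, the parent gene of the pseudogene, rose by 0.25 (369 ± 65.3 to 435 ± 43.1 CPM, edgeR, adjusted p = 0.00818). The Rpsa levels overlapped between the 2 kinds of mice, at 326 to 532 CPM in parental and 386 to 515 CPM in PS19 mice, but not within APOE3 or within APOE4. Rpsa shares 28.7% of its windows of 50 bases with its other pseudogenes, and its counts depend on how such reads were divided.

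None of the other genes tested around Prnp reached the lower bound of Lamr1-ps1. Of 22 other annotated genes within 500 kb of either end of Prnp, 13 were tested, and 2 were higher and 2 lower in PS19 mice in the pooled fit. That is 30.8% of those tested, beside 21.8% of all genes, and nothing particular to the locus is read from it. In the lines taken alone, 0 of 12 were called with APOE2, 0 of 13 with APOE3 and 3 of 13 with APOE4, beside 0.752%, 5.37% and 15.6% of all genes. The 2 counts of 0 are edgeR's, with 3 of 12 and 6 of 13 at an unadjusted p under 0.05 and 1 and 3 called by DESeq2. Among the neighbors called in the pooled fit, the nearest on the upstream side were Erv3 and 5330413P13Rik. The endogenous retroviral gene Erv3 rose by 0.59 (0.406 ± 0.0891 to 0.614 ± 0.185 CPM, edgeR, adjusted p = 0.0351), and 5330413P13Rik fell by 0.67 (2.54 ± 0.371 to 1.58 ± 0.331 CPM, adjusted p = 0.000588). Farther out, the spermine oxidase gene Smox rose by 0.49 (35.0 ± 4.97 to 49.4 ± 13.4 CPM, edgeR, adjusted p = 0.0011) and the prokineticin receptor gene Prokr2 fell by 0.58 (2.96 ± 0.853 to 1.98 ± 0.436 CPM, adjusted p = 0.0173). Prn, which starts inside Prnp, differed by -0.08 and did not pass (edgeR, adjusted p = 0.947).

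**Figure D5:**
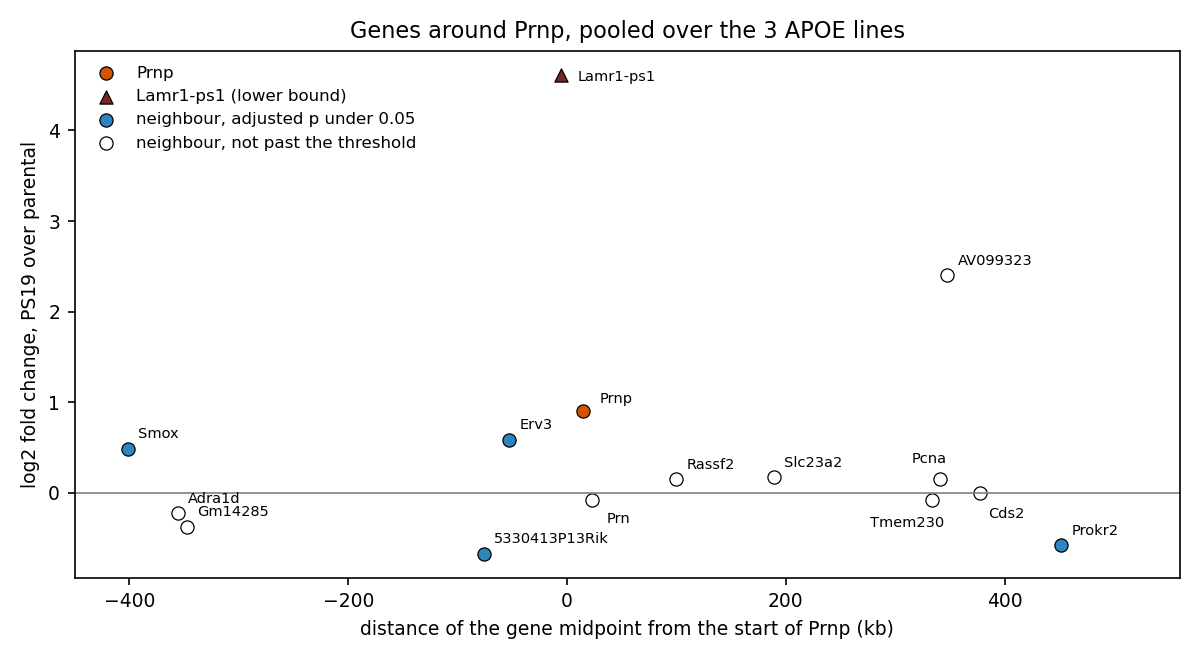
Log2 fold change of PS19 over parental mice, pooled over the 3 APOE lines, against the distance of each gene's midpoint from the start of Prnp in kb, for the 13 tested neighbors, Prnp and Lamr1-ps1. Lamr1-ps1 is drawn as a triangle at its smallest lower bound over the 3 lines (4.61, a 24.5-fold difference), above all neighbors including AV099323, which has at most 20 counts in any mouse and did not pass.

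Around Mapt (chr11:104231390-104332090, plus strand), 23 other genes were annotated within 500 kb and 12 were tested, of which 1 rose and 4 fell in the pooled fit (41.7%, beside 21.8% of all genes). Within 1000 kb 7 of 26 tested were called (26.9%), and nothing particular to the locus is read from these shares. In the lines taken alone, edgeR called 0 of 11 with APOE2 (0.752% of all genes), 0 of 11 with APOE3 (5.37%) and 4 of 11 with APOE4 (15.6%). Of these, 1, 3 and 6 had an unadjusted p under 0.05 and DESeq2 called 0, 1 and 5. Wnt3, a secreted signaling ligand, rose by 0.72 (3.84 ± 0.787 to 6.33 ± 1.34 CPM, edgeR, adjusted p = 0.000377). Crhr1, the corticotropin-releasing hormone receptor beside Mapt, fell by 0.29 (17.8 ± 1.47 to 14.6 ± 2.41 CPM, edgeR, adjusted p = 0.00389), and Nsf, a factor of vesicle fusion, fell by 0.13 (920 ± 33.9 to 841 ± 54.0 CPM, adjusted p = 0.0122). Gm11639 fell by 0.88 from 0.972 ± 0.355 to 0.551 ± 0.321 CPM (edgeR, adjusted p = 0.0348). The genes annotated inside Mapt, Gm11659, Gm22743 and Gm47310, had at most 7, 1 and 1 counts in any mouse.

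Most markers of astrocytes, microglia and oligodendrocytes were higher in PS19 than in parental mice in the pooled fit, where 21.8% of all genes passed. All 7 astrocyte markers rose in the pooled fit (edgeR, adjusted p under 0.05), with their summed level at 2749 to 3311 CPM in parental and 4163 to 6271 CPM in PS19 mice, and 6 of 7 microglial markers rose, at 260 to 341 and 400 to 688 CPM. Of 6 oligodendrocyte markers 4 rose, at 4758 to 6926 and 5994 to 9063 CPM. Of 7 neuronal markers 2 rose (Gad1 and Gad2) and 3 fell (Snap25, Syt1 and Slc17a7), and their summed level overlapped at 6845 to 7419 and 6035 to 7537 CPM. Of 3 endothelial markers 1 rose, at 74.8 to 106 and 68.4 to 108 CPM, and of 5 choroid plexus markers 2 rose, at 443 to 764 and 418 to 1211 CPM. In the single lines, edgeR called 1 of 7 astrocyte and 3 of 7 microglial markers with APOE2 (0.752% of all genes). It called 0 of 6 oligodendrocyte and 0 of 7 neuronal markers there, and DESeq2 also called 0 and 0. With APOE3 (5.37%) edgeR called 6, 5, 6 and 0 of these 4 kinds, and with APOE4 (15.6%) 6, 6, 5 and 5. DESeq2 called 1 neuronal marker with APOE3. In bulk samples, fewer cells of a type and less RNA per cell cannot be told apart, and the part of these shifts in the Prnp and MAP values was not tested.

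The genes most like Prnp and Mapt over the 21 mice were found among 15785 genes with a mean of at least 1 CPM, by Pearson's r of log2 CPM. For Prnp they were Lag3 (r = 0.97), Med22 (0.94), Cst7 (0.94), C1qb (0.94) and C1qa (0.93), which also differ between PS19 and parental mice. Lag3 encodes an immune checkpoint receptor, C1qa and C1qb complement subunits and Cst7 a cystatin of activated microglia. Within the 12 PS19 mice alone r was 0.66 for Lag3, 0.84 for Med22, -0.38 for Cst7, 0.13 for C1qb and -0.12 for C1qa. For Mapt they were Armc9 (0.84), Eda (0.81), Stk11ip (0.80), 5031434O11Rik (0.80) and Tor1b (0.79), with r of 0.66 to 0.82 within the PS19 mice. The mice share library preparation and the split by transgene, and these values are descriptions. Prnd was too seldom counted for such a list.

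Mapt was compared with the prion locus in the same way as Lamr1-ps1. Over the 12 PS19 mice Mapt gave r = 0.33 with Prnp (rho = 0.29, permutation p = 0.289 and 0.356, adjusted p = 0.385 and 0.478) and r = 0.08 with Lamr1-ps1 (rho = 0.13, permutation p = 0.801 and 0.683, adjusted p = 0.801 and 0.683). Without the 2 mice farthest from the median of Mapt these values of r were 0.01 and -0.09. Over the 9 parental mice r was -0.71 between Mapt and Prnp (exact permutation p = 0.0393, adjusted p = 0.0785) and rho was -0.35 (exact p = 0.359, adjusted p = 0.478). That value rests on E2H mouse 2, without which r was -0.22 (exact permutation p = 0.585). The other 8 of 12 pairs could not be computed because Prnd, or Lamr1-ps1 in the parental mice, was at 0 in all or all but 1 mouse.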

How the data were processed

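Forebrain RNA of 21 mice was sequenced from stranded poly(A) libraries. The authors trimmed reads with Cutadapt, aligned them with HISAT2 to the mouse genome (build GRCm38.p5 in the submitters' processing notes) and assembled, merged and quantified transcripts with StringTie, and the versions are not given in the sources used here. They deposited whole-number counts per gene without normalization, and FPKM values that the authors scaled by transcript length and library size. How reads shared by genes were divided is not given in the sources used here. Symbols and positions came from GENCODE M21 (GRCm38), which names 55141 of the 55401 genes, and 0 table columns were unmapped.

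Counts were fitted with edgeR 4.0.16 in R 4.3.3 (TMM, filterByExpr with a minimum count of 10 and a minimum total of 15, quasi-likelihood F test, Benjamini-Hochberg adjusted p under 0.05, no fold limit). Each pair of groups was fitted alone. The pooled effect and the interactions were contrasts of group means in 1 fit over all 21 mice, with the lines weighted equally in the pooled effect. Intervals are 95% and not adjusted. limma 3.58.1 and DESeq2 1.42.0 were alternatives. Correlations, levels and figures used Python 3.11.15, SciPy 1.17.1 and matplotlib 3.10.9, and edlib 1.3.9.post1 aligned Lamr1-ps1 with Rpsa.

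The 8 genes, the gene lists and the neighbor windows were chosen with earlier results of these data known. Of each list and of each 500 kb window, the text names every called gene where 4 or fewer were called, and otherwise the 4 with the smallest adjusted p, besides Rpsa, Sprn, genes that overlap one of the 8, and the 5 genes most alike to Mapt and Prnp. Replicates are separate mice. No pair among the 27 within groups had identical counts. Same-numbered mice are different animals, and 0 of 30 correlations of their deviations were over 0.1, so the numbers do not pair them. The pooled fit was tested on simulated data with known changes. The study's own limit of at least 2-fold was used as an alternative.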

Additional observations from a re-analysis of the deposited data

Results flagged for a closer look

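In groups of 4 mice the highest or lowest mouse was set against the other 3 for each of the 8 genes, and chance alone marks about 1 group in 20. Map1b stood at 522 CPM in PS/E3H mouse 4, below the 636 to 652 CPM of the other 3 mice. Prnd stood at 0.230 CPM in PS/E3H mouse 4, from 16 counts, where the other 3 mice had 0. The cause of either was not tested.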

How the results depend on the processing

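The alternatives were DESeq2, RLE scaling, no filter on low counts, limma on log2(FPKM + 0.1) and on log2(FPKM + 1), a fold change of at least 2, each mouse left out, a block on the replicate number, and a spread shared by all 21 mice. Library totals without scaling factors for the tests, the bound of Lamr1-ps1 with TMM factors and the correlations without each mouse were added after the data were seen. The pooled differences of Prnp, Mapt and the MAP genes moved by less than 1 SD under each, with Prnp from 0.88 to 0.93 when 1 mouse was left out. For Mapt that SD, 0.0703 on the log2 scale, is larger than the pooled difference of -0.0551, so the limit says little there. The pooled Mapt difference ran from -0.0739 to -0.0319 over the alternatives, and the APOE2 one changed sign, to -0.0068, without E2H mouse 2. The bounds of Lamr1-ps1 ran from 26.8 to 29.9 with APOE2, 21 to 27.2 with APOE3 and 25.3 to 36.3 with APOE4. No member was called between APOE genotypes under any alternative except Map1a for APOE4 against APOE2 (1 call by DESeq2, log2 difference -0.44, adjusted p = 0.042).

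Counts of called genes depended on the method, and the cause was not tested. For the PS19 effect with APOE2 (155), the counts were 100 at 2-fold, 690 by DESeq2, 70 without the filter, 94 by limma on log2(FPKM + 1), 246 with the replicate block, 557 with the shared spread and 31 (without E2H mouse 1) to 142 without 1 mouse, with 36, 45 and 69 without E2H mouse 3, PS/E2H mouse 1 and PS/E2H mouse 3. With APOE3 (1141) they were 281 at 2-fold, 2468 by DESeq2, 554 without the filter, 651 by limma on log2(FPKM + 1), 529 with the block and 113 (without E3H mouse 1) to 2584 (without PS/E3H mouse 1), and each of the 7 mice moved the count by over 1.5 times. With APOE4 (3252) they were 621 at 2-fold, 1249 with the block and 1189 (without E4H mouse 2) to 3402, with 1529 without E4H mouse 1. The pooled count (4993) was 645 at 2-fold. E2H against E3H (37) gave 589 by DESeq2, 83 with the shared spread and 22 to 55 without 1 mouse. E4H against E3H (34) gave 21 at 2-fold, 160 by DESeq2, 15 without the filter, 17 with the block, 19 with the shared spread and 17 to 21 without 1 mouse. E4H against E2H (45) gave 324 by DESeq2, 26 with the block, 93 with the shared spread and 27 to 55 without 1 mouse. PS/E2H against PS/E3H (23) gave 152 by DESeq2, 15 with the block, 49 with the shared spread and 14 to 23 without 1 mouse. PS/E4H against PS/E3H (4) gave 35 by DESeq2, 2 without scaling factors, 2 without the filter, 0 with the block, 13 with the shared spread and 0 to 6 without 1 mouse. PS/E4H against PS/E2H (24) gave 259 by DESeq2, 100 with the shared spread and 15 to 32 without 1 mouse. The interactions (0 each) gave 9, 11 and 198 by DESeq2, 1 with the block for APOE2 and for APOE4 against APOE3, and 0 to 1, 0 to 4 and 0 to 14 without 1 mouse.

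Called neighbors of Prnp (4) were 2 within 250 kb, 10 within 1000 kb and 3 to 6 without 1 mouse, and those of Mapt (5) were 2 within 250 kb, 3 without the filter and 3 to 5 without 1 mouse. Called tubulins (1) were 0 to 2 without 1 mouse. Tuba1c was the only call with all mice, with 0 left without E2H mouse 1 or 3, E3H mouse 3 or E4H mouse 1 or 2. Without PS/E2H mouse 2 or PS/E3H mouse 1 the count was 2. Between Prnp and Lamr1-ps1 in PS19 mice, r was 0.69 on log2(FPKM + 0.1) with an adjusted p of 0.0524, and 0.66 to 0.80 without 1 mouse. Between Mapt and Lamr1-ps1 it was -0.15 on that scale and -0.037 to 0.20 without 1 mouse. Between Mapt and Prnp in parental mice it was -0.80 to -0.22 without 1 mouse. Without 1 mouse, Lamr1-ps1 of PS/E4H differed by -0.019 to 0.57 from PS/E3H and by -0.22 to 0.32 from PS/E2H, both lowest without PS/E4H mouse 3. Depth limits Prnd and Lamr1-ps1, at 16 and 136 counts or fewer per mouse.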
